A study of Mus musculus with 10 samples.

Results

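Molecular chaperones and the enzymes that work with them were followed as 91 genes among the 55573 rows of the deposited gene table. They were chosen by gene name: heat shock protein genes with the prefix Hsp, the DnaJ genes of classes A, B and C, the chaperonin subunits Cct2 to Cct8 and Tcp1, the protein disulfide isomerases named Pdia, and the heat shock factors Hsf1 and Hsf2. Of 108 rows with such names, 16 pseudogene rows marked -ps and Hspb11 were left out. The libraries came from cortical neurons of mouse pups at postnatal day 3. The Cdk7_KO group was NexCre/+;Cdk7lox/lox;R26EYFP/+ and the Ctrl group was NexCre/+;Cdk7+/+;R26EYFP/+, with 5 mice in each group and 1 sorted preparation per mouse. Both groups therefore carried 1 copy of NexCre, a Cre at the Neurod6 locus that acts in excitatory cortical neurons from soon after their birth, and 1 copy of the R26EYFP reporter, on which the cells were sorted. Cdk7 is a kinase that activates other cyclin-dependent kinases and, within TFIIH, phosphorylates RNA polymerase II. The design compares sorted cells of mice with lox sites in both Cdk7 alleles and of mice with both alleles intact. Cdk7 protein was not measured here.

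Chaperones hold, fold or refold other proteins. Hsp70 proteins bind short unfolded stretches in a cycle driven by ATP, DnaJ proteins hand them clients and start that cycle, and exchange factors end it. Hsp90 matures kinases, receptors and other signalling clients, the ring-shaped chaperonin TRiC folds actin and tubulin, and mitochondria and the endoplasmic reticulum (ER) each have their own Hsp70 system. Several of the cytosolic genes are classical targets of Hsf1, and several of the ER genes are classical targets of the unfolded protein response. A developing neuron needs TRiC for its tubulin and ER chaperones for its receptors and adhesion proteins.

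Promoters of the ER members are shown first because the 4 genes with the classical ER stress response element all encode ER luminal proteins. A window of 250 bases upstream of the RefSeq start was found for 74 of the 91 members (RefSeq, build GRCm38.p6). The element was searched as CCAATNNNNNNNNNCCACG on both strands, and it stood in the windows of 4 of these 74 genes (5.41%), against 35 of all 27025 genes with a window (0.130%). Capitals mark the matches. Hsp90b1 holds 2 of them, the second on the opposite strand.
Hspa5 (chr2:34771840-34772089, plus strand): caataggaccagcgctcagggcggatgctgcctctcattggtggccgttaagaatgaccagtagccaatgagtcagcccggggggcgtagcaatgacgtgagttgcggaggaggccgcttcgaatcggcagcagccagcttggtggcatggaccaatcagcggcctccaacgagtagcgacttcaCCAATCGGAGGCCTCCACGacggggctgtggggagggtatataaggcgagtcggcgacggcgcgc
Hsp90b1 (chr10:86705445-86705694, minus strand): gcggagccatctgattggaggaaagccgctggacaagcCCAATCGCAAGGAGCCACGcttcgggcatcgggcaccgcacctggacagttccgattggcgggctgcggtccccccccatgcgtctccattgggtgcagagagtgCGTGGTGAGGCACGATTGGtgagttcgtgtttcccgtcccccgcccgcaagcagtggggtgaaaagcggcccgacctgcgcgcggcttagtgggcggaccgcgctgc
Dnajc3 (chr14:118937682-118937931, plus strand): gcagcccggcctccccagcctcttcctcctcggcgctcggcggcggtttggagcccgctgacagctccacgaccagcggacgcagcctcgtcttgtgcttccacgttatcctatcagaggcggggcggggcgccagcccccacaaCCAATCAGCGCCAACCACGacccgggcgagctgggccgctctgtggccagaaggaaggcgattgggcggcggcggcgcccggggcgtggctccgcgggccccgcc
Pdia6 (chr12:17266339-17266588, plus strand): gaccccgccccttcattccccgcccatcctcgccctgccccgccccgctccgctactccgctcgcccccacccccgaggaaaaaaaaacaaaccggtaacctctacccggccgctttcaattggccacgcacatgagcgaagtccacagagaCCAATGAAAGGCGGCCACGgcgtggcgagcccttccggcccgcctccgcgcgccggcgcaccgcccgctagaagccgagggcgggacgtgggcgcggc
The match ended 47 bases upstream of the start in Hspa5, 87 in Dnajc3 and 80 in Pdia6.

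A heat shock element, searched as TTCNNGAANNTTC on both strands, stood in the windows of 3 of the 74 members (4.05%), Dnajb6, Hspd1 and Hspe1, against 139 of 27025 genes (0.514%). Hspd1 and Hspe1 encode the mitochondrial chaperonin Hsp60 and its lid Hsp10, lie head to head, and share the stretch between their starts. It is given because 1 stretch serves both genes, and it holds 2 overlapping matches in 18 bases, shown in capitals.
Hspd1-Hspe1 (chr1:55087933-55088147, plus strand): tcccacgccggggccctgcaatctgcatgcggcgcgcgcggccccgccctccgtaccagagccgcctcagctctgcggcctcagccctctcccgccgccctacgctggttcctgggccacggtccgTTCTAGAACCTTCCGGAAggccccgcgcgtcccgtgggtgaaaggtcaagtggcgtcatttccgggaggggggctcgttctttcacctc
A match describes these letters only, and binding was not measured.

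The libraries held 23497621 to 31233466 counts and 19467 to 21583 detected genes each. Cdk7 averaged 5.16 ± 1.30 CPM (counts scaled by the library total) in Cdk7_KO and 15.7 ± 4.00 CPM in Ctrl (SD, n = 5 each), with no overlap and a log2 fold change of -1.54. Its edgeR adjusted p was 0.161, and its DESeq2 adjusted p was 2.41e-08. The counts cover the whole gene, so the remaining reads cannot be assigned to deleted or retained exons. Of 10 projection neuron markers, 9 had a higher mean in Cdk7_KO, where their summed level ran between 4699 and 5739 CPM, against 3995 to 5229 CPM in Ctrl. Every marker of 4 other cell types had a lower mean in Cdk7_KO, and none was at 0 in all libraries: 10 of 10 for astrocytes and radial glia, 9 of 9 for vessel cells, 8 of 8 for microglia and 8 of 8 for the oligodendrocyte lineage. Their summed ranges were 199.3 to 910.3 CPM in Cdk7_KO against 813.7 to 1564 CPM in Ctrl for astrocytes, 48.7 to 256.5 against 181.9 to 1157 CPM for vessel cells, 52.0 to 162.2 against 99.5 to 334.4 CPM for microglia, and 202.9 to 565.0 against 332.6 to 934.9 CPM for the oligodendrocyte lineage. In bulk samples, fewer cells of a type and less RNA per cell cannot be told apart.

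Chaperone genes took 1.34 to 1.43% of all counts in Cdk7_KO and 1.27 to 1.43% in Ctrl. At least 1 count was seen for 87 of them, and 77 passed the filter on low counts. Their fold changes were small: 66 of the 77 (85.7%) lay within 0.25 of 0 on the log2 scale, against 70.2% of all 15578 genes tested. The median log2 fold change was 0.03 over the members and 0.01 over all genes. Of the members, 43 were on the higher side (55.8%) and 34 on the lower, against 52.5% of all genes on the higher side.

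No member passed edgeR's quasi-likelihood test at an adjusted p of 0.05, and neither did any other gene (0 of 15578, 0%). At an unadjusted p under 0.05, 9 of 77 members were higher in Cdk7_KO (11.7%) and 8 were lower (10.4%), against 4.90% of all genes on the higher side and 10.5% on the lower. Scaled by library totals alone, 2 members were higher and 8 lower. The higher count was 0 without Cdk7_KO replicate 4, 5 without Ctrl replicate 4 and 4 without Ctrl replicate 5. The lower count was 5 without Ctrl replicate 1. No share over all genes is given for these fits, so these changes cannot be set against the background. DESeq2 called 2 of the 79 members to which it gave an adjusted p, both lower, against 3.02% of genes lower and 0.225% higher. The CPM ranges of the groups did not overlap for 1 member on the higher side (1.30%, against 0.610% of genes) and 4 on the lower (5.19%, against 2.41% of genes). These ranges use library totals, and dividing by edgeR's TMM factors brings Dnajc3 and Hspa14 to overlap.

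**Figure D1:**
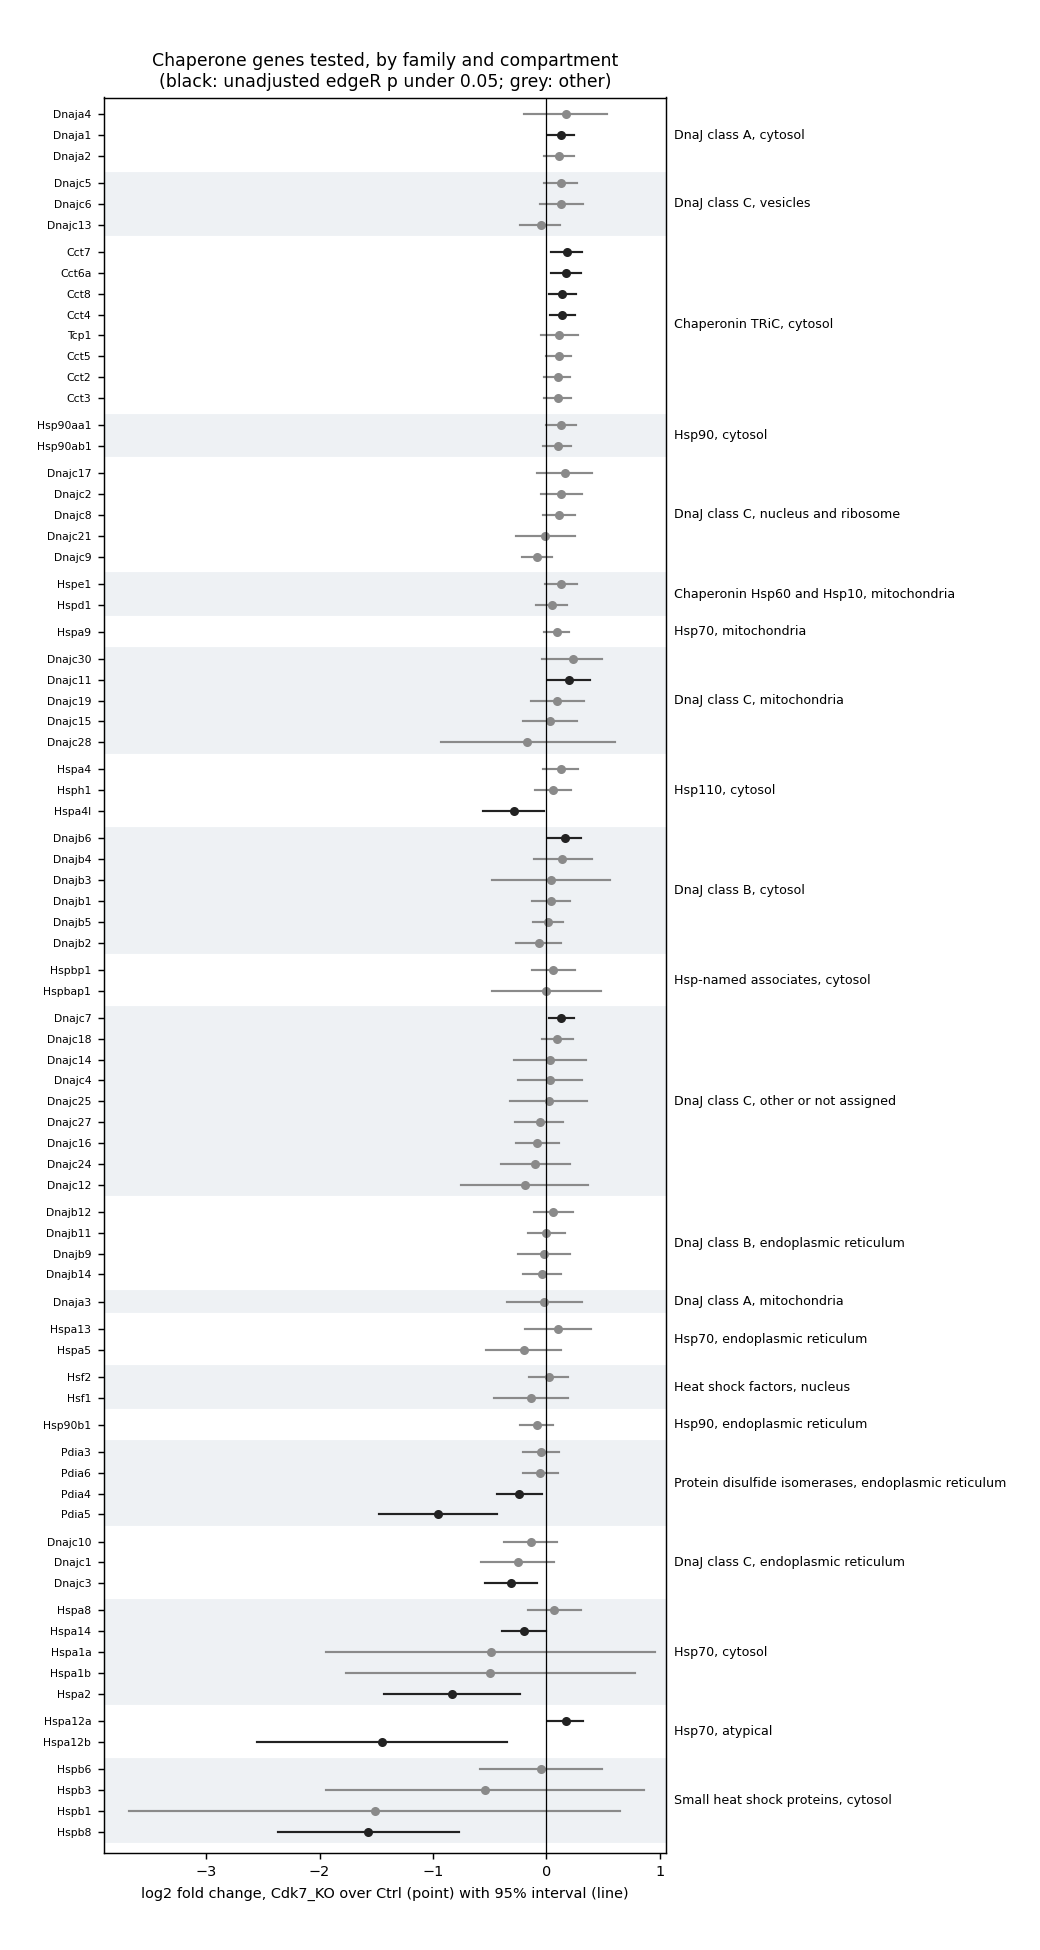
Log2 fold change of Cdk7_KO over Ctrl for the 77 tested chaperone genes (points, TMM-scaled edgeR fit) with 95% intervals (lines), grouped by family and compartment with the groups of higher median at the top. The 8 TRiC subunits lie between 0.10 and 0.18, and the widest negative values are those of Hspb8, Hspb1 and Hspa12b at the bottom.

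The members were picked by gene name, so their levels describe the set and do not test its name. Scaled for exon length, as CPM per kilobase of exon (RPKM) averaged over all 10 libraries, Hsp90ab1 came first with a level of 945.3 RPKM, Hspa8 next with 409.7 RPKM, and Hsp90aa1 after it with 234.0 RPKM. Cct2 followed with 159.1 RPKM, Cct5 with 124.4 RPKM and Cct6a with 101.6 RPKM. The ER Hsp70 gene Hspa5 was 10th with 81.0 RPKM. Exons of all annotated isoforms enter the lengths, so genes with long alternative exons rank lower. Variation over the 10 libraries, as the coefficient of variation of CPM, had a median of 9.53% over the tested members. It was lowest for Hspa9, the mitochondrial Hsp70, at 2.62%, and highest for the small heat shock gene Hspb1 at 147.1%.

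The 3 most abundant members, all cytosolic Hsp90 or Hsp70 genes, overlapped between the groups. Hsp90ab1, the constitutive Hsp90, had 2790.0, 3025, 2965, 2834 and 2778 CPM in Cdk7_KO, against 3012, 3017, 2607, 2667 and 2657 CPM in Ctrl. The groups overlapped, with 2 Ctrl libraries among the 3 highest, and the log2 fold change was 0.10 (SE 0.060, unadjusted p = 0.13, edgeR). Hspa8, the constitutive Hsc70, had 1522, 1980.0, 1924, 1887 and 1568 CPM in Cdk7_KO, against 1936, 1691, 1394, 1889 and 1832 CPM in Ctrl. Both groups spread over the same range, with a log2 fold change of 0.07 and a 95% interval between -0.16 and 0.30. Hsp90aa1, the stress-inducible Hsp90, averaged 944.2 ± 38.4 CPM in Cdk7_KO and 895.3 ± 56.9 CPM in Ctrl (SD, n = 5 each; log2 fold change 0.13, unadjusted p = 0.057, edgeR).

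Among the other Hsp70 relatives, the direction varied. Hspa14, which in human cells works at the ribosome with the DnaJ protein Dnajc2, had 24.5, 22.7, 24.0, 20.1 and 23.3 CPM in Cdk7_KO, against 30.2, 25.0, 29.3, 26.2 and 25.5 CPM in Ctrl. By library totals every Cdk7_KO library was below every Ctrl library. The nearest libraries, Cdk7_KO replicate 1 and Ctrl replicate 3, had TMM factors of 0.9888 and 1.019, and dividing by these reverses their order. The log2 fold change was -0.20 (SE 0.089, unadjusted p = 0.048, edgeR). Dnajc2 itself stood at 54.7 ± 6.20 CPM in Cdk7_KO and 51.8 ± 4.09 CPM in Ctrl. Hspa4l, an Hsp110 that releases ADP from Hsp70, averaged 28.7 ± 4.70 CPM in Cdk7_KO and 36.4 ± 4.90 CPM in Ctrl (SD, n = 5 each; log2 fold change -0.29, unadjusted p = 0.036, edgeR). Its more abundant relatives Hspa4 and Hsph1 had log2 fold changes of 0.13 and 0.06. Hspa12a, an atypical Hsp70 of neurons, averaged 212.8 ± 16.6 CPM in Cdk7_KO and 196.7 ± 16.8 CPM in Ctrl (log2 fold change 0.17, unadjusted p = 0.040, edgeR).

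DnaJ genes of the cytosol differed by small amounts, and the direction of class B depended on the scaling. All 3 tested class A genes of the cytosol had positive log2 fold changes (0.11 to 0.17), with a median of 0.13. Dnaja1, the main Hsp70 partner of class A, had 406.4, 409.7, 424.8, 418.2 and 424.4 CPM in Cdk7_KO, against 415.7, 417.8, 399.5, 368.8 and 378.2 CPM in Ctrl. The 2 Ctrl libraries of replicates 1 and 3 lay inside the Cdk7_KO range and the other 3 below it (log2 fold change 0.13, unadjusted p = 0.038, edgeR). Of 6 tested class B genes of the cytosol, 5 were positive, led by Dnajb6, a suppressor of protein aggregation, at 181.6 ± 7.83 CPM in Cdk7_KO and 169.0 ± 9.50 CPM in Ctrl (log2 fold change 0.16, unadjusted p = 0.033, edgeR). With library totals 2 of these 6 were positive, and within replicates 1 to 3 alone 3 were. Dnajc7, which carries TPR repeats and binds both Hsp70 and Hsp90, averaged 224.0 ± 9.39 CPM in Cdk7_KO and 212.2 ± 10.1 CPM in Ctrl (log2 fold change 0.13, unadjusted p = 0.025, edgeR).

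Of 3 tested DnaJ genes of synapses and vesicles, 2 were on the higher side, with a median log2 fold change of 0.13. None had an unadjusted edgeR p under 0.05. Dnajc5, the cysteine string protein of synaptic vesicles, averaged 436.6 ± 12.9 CPM in Cdk7_KO and 414.8 ± 31.1 CPM in Ctrl (log2 fold change 0.13, unadjusted p = 0.093, edgeR). Dnajc6, the neuronal auxilin that strips clathrin from vesicles, averaged 129.9 ± 14.0 CPM in Cdk7_KO and 122.7 ± 10.7 CPM in Ctrl. The 5 nuclear and ribosomal class C genes lay between -0.08 and 0.16.

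Cochaperones outside the name pattern were taken from a list of 83 genes in 7 roles. Of 13 Hsp90 cochaperones, all tested, 11 were on the higher side, against 52.5% of all genes. An unadjusted edgeR p under 0.05 was reached by 2, both higher, against 4.90% of all genes higher. They were the immunophilins Fkbp4, at 344.9 ± 14.5 CPM in Cdk7_KO and 321.6 ± 9.64 CPM in Ctrl, and Fkbp5, at 55.4 ± 2.11 CPM in Cdk7_KO and 50.7 ± 3.57 CPM in Ctrl. Their log2 fold changes were 0.15 and 0.18. The median over the 13 was 0.06, against 0.01 over all genes. Of 12 Hsp70 exchange factors and adaptors, 8 were on the higher side, with 1 gene at an unadjusted p under 0.05 in each direction. Grpel2, a mitochondrial exchange factor, averaged 47.8 ± 6.07 CPM in Cdk7_KO and 41.7 ± 2.43 CPM in Ctrl, with a log2 fold change of 0.25. Neither edgeR nor DESeq2 called any of the 83 genes at an adjusted p of 0.05.

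Hspa1a and Hspa1b, the inducible Hsp70 genes, were singled out after their values were seen, and they are near-identical copies whose reads cannot be divided with certainty, so they were also summed. Their sum was 4.19, 12.7, 18.9, 5.89 and 3.70 CPM in Cdk7_KO, against 32.8, 16.3, 6.58, 5.44 and 4.44 CPM in Ctrl. The groups overlapped over most of their range, and the Ctrl library of replicate 1 stood highest. The log2 fold changes were -0.49 for Hspa1a and -0.50 for Hspa1b, and without that library they were 0.14 and 0.22. The summed level of 11 immediate early genes that cell dissociation is known to induce was 1324, 2188, 1985, 1101 and 771.8 CPM in Cdk7_KO, against 2743, 2267, 1714, 1200 and 958.6 CPM in Ctrl. In Ctrl the 5 libraries stood in the same order for both sums, and in Cdk7_KO replicates 2 and 3 were the highest for both. The part of dissociation in these values was not tested.

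Dnajb1 and Hsph1, which heat shock also induces, had close means in both genotypes. Dnajb1, the inducible class B partner of Hsp70, also singled out afterwards, averaged 68.7 ± 4.83 CPM in Cdk7_KO and 69.2 ± 5.43 CPM in Ctrl (SD, n = 5 each). Hsph1 averaged 150.0 ± 10.8 CPM in Cdk7_KO and 149.3 ± 8.88 CPM in Ctrl. Hsf1, the factor that drives the heat shock response, averaged 27.3 ± 4.43 CPM in Cdk7_KO and 31.2 ± 6.69 CPM in Ctrl (log2 fold change -0.14, 95% interval -0.46 to 0.19). Hsf2 had a log2 fold change of 0.02 with the TMM factors and -0.03 with library totals.

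**Figure D2:**
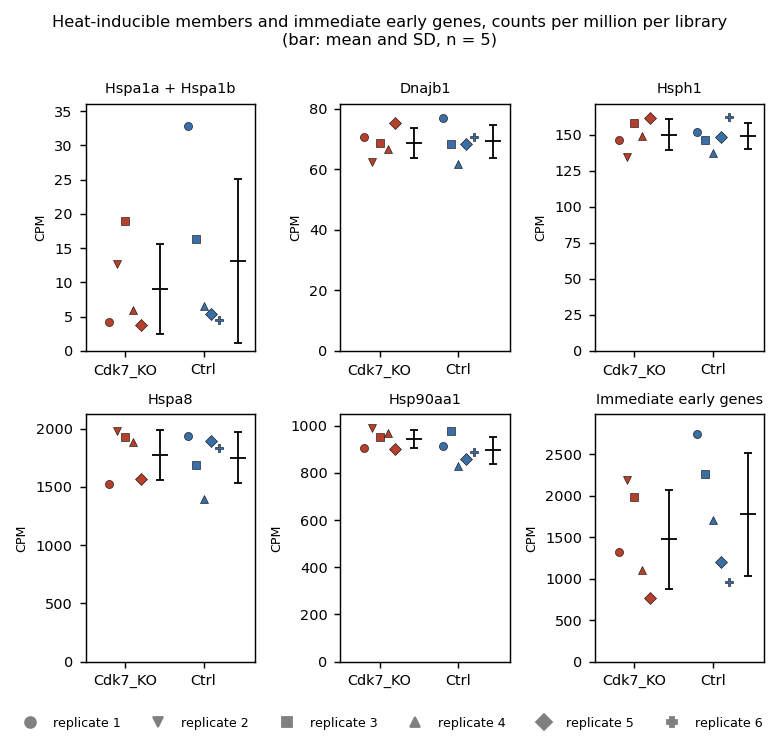
CPM in each library for the summed pair Hspa1a and Hspa1b, for 4 further heat-inducible or constitutive members, and for 11 summed immediate early genes, with Cdk7_KO at left, Ctrl at right, and bars for the mean and SD of 5 libraries. The Ctrl library of replicate 1 is highest in the Hspa1a and Hspa1b sum (32.8 CPM) and in the early genes (2743 CPM), while Hspa8 and Hsp90aa1 overlap between the groups.

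TRiC, the chaperonin of actin and tubulin, showed an even pattern. All 8 subunits that passed the filter were higher in Cdk7_KO, with log2 fold changes between 0.10 and 0.18 and a median of 0.13, against 0.01 over all genes. Summed over the genes of the complex, the level was 2825, 2773, 2733, 2853 and 2836 CPM in Cdk7_KO, against 2723, 2745, 2492, 2649 and 2658 CPM in Ctrl. Only the Cdk7_KO library of replicate 3 reached into the Ctrl range, and the Ctrl library of replicate 4 lay lowest. No subunit passed edgeR's test (adjusted p between 0.204 and 0.510) or DESeq2's (adjusted p between 0.213 and 0.625).

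Cct6a (ENSMUSG00000029447, chr5:129786998-129846371, GRCm38) was the member whose groups did not overlap on the higher side. It had 380.0, 382.8, 383.3, 398.7 and 372.5 CPM in Cdk7_KO, against 367.1, 362.1, 322.7, 347.8 and 362.4 CPM in Ctrl. The gap between the groups was narrow, and the fold was 1.13 (log2 0.17, SE 0.060, unadjusted p = 0.013, edgeR). Cct7 had 462.6, 436.3, 435.8, 462.5 and 454.6 CPM in Cdk7_KO, against 439.3, 433.8, 378.2, 411.5 and 403.3 CPM in Ctrl. Of its Ctrl libraries only replicate 1 reached into the Cdk7_KO range (log2 fold change 0.18, unadjusted p = 0.014, edgeR). Cct4 averaged 262.5 ± 3.76 CPM in Cdk7_KO and 246.5 ± 9.22 CPM in Ctrl, and Cct8 averaged 295.9 ± 3.82 CPM in Cdk7_KO and 278.5 ± 14.1 CPM in Ctrl (SD, n = 5 each). Both had a log2 fold change of 0.14, at unadjusted p = 0.017 and 0.022 (edgeR). The other 4 subunits, Cct2, Cct5, Cct3 and Tcp1, had log2 fold changes of 0.10, 0.11, 0.10 and 0.11.

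**Figure D3:**
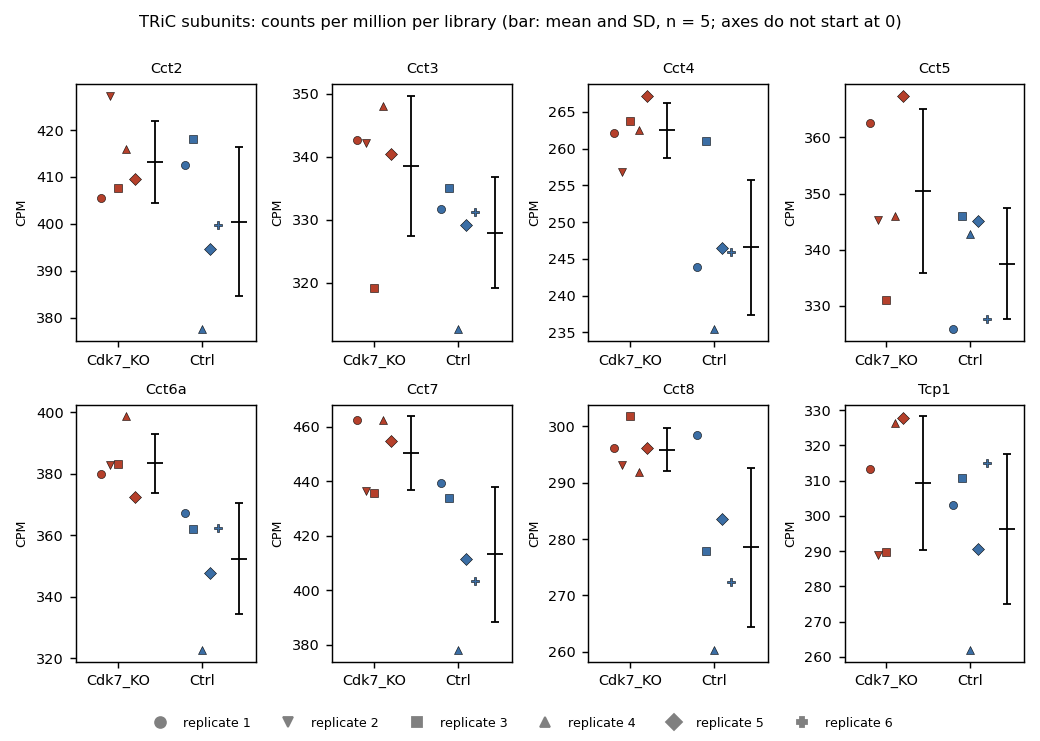
CPM of the 8 TRiC subunits in each library, Cdk7_KO at left and Ctrl at right, with the mean and SD of 5 libraries; the vertical axes do not start at 0. Cct6a shows no overlap between the groups (lowest Cdk7_KO library 372.5 CPM, highest Ctrl library 367.1 CPM), and the Ctrl library of replicate 4 is lowest in every panel except that of Cct5.

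Each TRiC ring holds 1 copy of each subunit, and the length-scaled levels of the 8 genes differed. Per length, Cct2 made up 22.0 ± 0.57% of the summed level of the 8 subunits in Cdk7_KO and 22.5 ± 0.21% in Ctrl, against 12.5% for an equal share (SD, n = 5 each). Cct5 followed with 17.3 ± 0.56% in Cdk7_KO and 17.5 ± 0.88% in Ctrl. Cct3 gave the smallest share, 7.24 ± 0.16% in Cdk7_KO and 7.40 ± 0.08% in Ctrl. The shares kept their order in both genotypes except for Tcp1 and Cct4, which were within their spread of each other (8.38 ± 0.41% and 8.52 ± 0.15% in Cdk7_KO, against 8.45 ± 0.40% and 8.43 ± 0.18% in Ctrl). Exon lengths of all annotated isoforms enter these values, so genes with long alternative exons appear lower. By CPM without length the order differed, with Cct7 highest at 431.8 CPM and Cct4 lowest at 254.5 CPM. The shares therefore do not settle how many transcripts each gene had.

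The genes around TRiC leaned the same way. Prefoldin delivers actin and tubulin to TRiC. The 13 tested genes for prefoldin, tubulin cofactors and phosducin-like proteins were listed with earlier results of these data known. Of them, 12 were on the higher side, against 52.5% of all genes. An unadjusted edgeR p under 0.05 was reached by 3, all higher, against 4.90% of all genes higher. Their median log2 fold change was 0.13, against 0.01 over all genes. Pfdn2 averaged 103.8 ± 4.28 CPM in Cdk7_KO and 92.6 ± 6.81 CPM in Ctrl (log2 fold change 0.22, unadjusted p = 0.0071, edgeR). Vbp1, another prefoldin subunit, averaged 75.6 ± 5.34 CPM in Cdk7_KO and 69.3 ± 3.77 CPM in Ctrl (log2 fold change 0.18, unadjusted p = 0.012, edgeR). The neuronal tubulin gene Tubb3 averaged 2966 ± 187.2 CPM in Cdk7_KO and 2703 ± 326.3 CPM in Ctrl (log2 fold change 0.19, unadjusted p = 0.073, edgeR). The projection neuron marker sum was also higher in Cdk7_KO, as given above, and its part in the TRiC values was not tested.

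Scaling and library set moved the size of the TRiC difference. Scaled by library totals alone, the median over the 8 subunits was 0.07, with all 8 positive. With any 1 library left out it lay between 0.10 and 0.15, with 8 of 8 positive. Replicates numbered 1 to 3 (3 Cdk7_KO, 2 Ctrl) gave 0.05, with 7 of 8 positive and Tcp1 at -0.03, and replicates numbered 4 to 6 (2 Cdk7_KO, 3 Ctrl) gave 0.21, with 8 of 8 positive. An index of other cells averaged the 4 other-cell marker lists given above, each as log CPM scaled over the 10 libraries. It was at most 0.101 in Cdk7_KO and at least 0.305 in Ctrl, so other cells and genotype cannot be told apart with it. With this index as a covariate the TRiC median was 0.09. No member was then higher at an unadjusted p under 0.05 (edgeR), and no share over all genes is given for that fit.

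Mitochondrial members differed by small amounts, most of them on the higher side. Of 9 tested, 7 were on the higher side, against 52.5% of all genes. Their median log2 fold change was 0.09, or 0.04 with 5 positive under library totals. Hspa9, the Hsp70 that pulls proteins through the inner membrane, averaged 294.7 ± 8.82 CPM in Cdk7_KO and 287.1 ± 4.01 CPM in Ctrl. The head-to-head pair Hspd1 and Hspe1, whose shared promoter is printed above, had log2 fold changes of 0.05 and 0.13. Hspd1 averaged 225.4 ± 13.9 CPM in Cdk7_KO and 226.5 ± 8.78 CPM in Ctrl, and Hspe1 averaged 73.2 ± 3.68 CPM in Cdk7_KO and 69.4 ± 4.54 CPM in Ctrl. Dnajc11, of the complex that shapes mitochondrial cristae, had 93.7, 89.5, 93.0, 109.0 and 107.3 CPM in Cdk7_KO, against 88.4, 86.8, 84.5, 88.3 and 98.3 CPM in Ctrl. Apart from the Ctrl library of replicate 6, every Ctrl library was below every Cdk7_KO library (log2 fold change 0.20, unadjusted p = 0.039, edgeR). It was 0.09 within replicates 1 to 3 and 0.35 within replicates 4 to 6. With the other-cell index as a covariate, which did not overlap between the groups, it was 0.01 (unadjusted p = 0.95, edgeR). Of 7 mitochondrial proteases and import partners, 5 were on the higher side. Of these 7, 1 was higher at an unadjusted edgeR p under 0.05, against 4.90% of all genes. It was Pam16, of the import motor (24.0 ± 0.88 CPM in Cdk7_KO and 21.3 ± 1.99 CPM in Ctrl, log2 fold change 0.23).

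The ER compartment leaned the other way. Of its 14 tested members, 12 were on the lower side, against 7405 of all 15578 genes tested. These 12 include Dnajb11 at 0.00 and Dnajb9 at -0.02. An unadjusted edgeR p under 0.05 was reached by 3 of them, against 10.5% of all genes lower at that p. The median log2 fold change of the compartment was -0.07, against 0.01 over all genes, and it was -0.12 with library totals. Summed over its genes the level was 1408, 1427, 1561, 1265 and 1474 CPM in Cdk7_KO, against 1637, 1772, 1447, 1581 and 1499 CPM in Ctrl. The groups overlapped, with the Cdk7_KO library of replicate 4 lowest and the Ctrl library of replicate 3 highest. The median was -0.04 without Ctrl replicate 3, and -0.11 without Ctrl replicate 4 or without Cdk7_KO replicate 5. With the other-cell index as a covariate, which did not overlap between the groups, it was 0.02 and 8 of the 14 were positive. Astrocyte markers ran higher in Ctrl, as given above, and the part of other cells in the ER values was not tested.

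Hspa5 (ENSMUSG00000026864), the ER Hsp70 known as BiP that senses unfolded protein, had 262.4, 362.4, 406.8, 241.5 and 294.3 CPM in Cdk7_KO, against 414.7, 483.2, 312.6, 333.8 and 314.6 CPM in Ctrl. Replicate 3 was the highest library in both genotypes, and the groups overlapped. Its log2 fold change was -0.20 (SE 0.15, unadjusted p = 0.22, edgeR), and the coefficient of variation over all libraries was 21.8%. Within replicates 1 to 3 it was -0.37, and within replicates 4 to 6 it was -0.16. With these 2 sets as a factor it was -0.27 (unadjusted p = 0.025, adjusted p = 0.178, edgeR). It was -0.09 without Ctrl replicate 3, and 0.11 with the other-cell index as a covariate. Hsp90b1, the ER Hsp90, averaged 299.2 ± 20.3 CPM in Cdk7_KO and 328.8 ± 25.3 CPM in Ctrl (log2 fold change -0.08).

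All 4 tested protein disulfide isomerases named Pdia, which form and shuffle disulfide bonds, were on the lower side. The abundant ones differed little: Pdia3, the partner of calnexin and calreticulin, averaged 258.4 ± 16.7 CPM in Cdk7_KO and 277.4 ± 25.2 CPM in Ctrl, and Pdia6 averaged 165.4 ± 12.2 CPM in Cdk7_KO and 178.7 ± 13.9 CPM in Ctrl. Pdia4 had 58.0, 49.9, 57.0, 52.2 and 67.8 CPM in Cdk7_KO, against 63.6, 78.8, 65.8, 72.7 and 68.4 CPM in Ctrl. Only the Cdk7_KO library of replicate 5 reached into the Ctrl range (log2 fold change -0.24, SE 0.091, unadjusted p = 0.020, edgeR). The log2 fold change was -0.36 within replicates 1 to 3 and -0.11 within replicates 4 to 6. Relatives outside the name pattern, Tmx1, P4hb, Txndc5 and Txndc11, had log2 fold changes of -0.09, -0.04, 0.00 and 0.12.

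All 3 class C DnaJ genes of the ER had negative log2 fold changes, 1 of them at an unadjusted p under 0.05 in edgeR. Summed, they averaged 97.0 ± 9.51 CPM in Cdk7_KO and 116.9 ± 6.27 CPM in Ctrl. Dnajc3 (ENSMUSG00000022136, chr14:118937976-118981697, GRCm38), an inhibitor of the kinase PERK and a BiP partner, had 30.6, 33.3, 37.0, 24.2 and 34.1 CPM in Cdk7_KO, against 45.5, 42.8, 37.5, 39.5 and 38.9 CPM in Ctrl. By library totals the groups did not overlap. The nearest libraries, Cdk7_KO replicate 3 and Ctrl replicate 4, had TMM factors of 1.011 and 1.045, and dividing by these reverses their order. The fold was 0.81 (log2 -0.31, SE 0.10, unadjusted p = 0.011, edgeR). Leaving out any 1 library kept it between -0.36 and -0.25 with an unadjusted edgeR p under 0.05 each time. With the other-cell index as a covariate it was -0.09 (unadjusted p = 0.57, edgeR), and 1 of the 3 class C genes, Dnajc1, was then positive at 0.05. That index did not overlap between the groups. Dnajc10, an ER reductase, averaged 47.2 ± 6.74 CPM in Cdk7_KO and 53.9 ± 5.08 CPM in Ctrl, and the membrane protein Dnajc1 averaged 18.0 ± 3.94 CPM in Cdk7_KO and 22.2 ± 3.11 CPM in Ctrl. The 4 class B genes of the ER, Dnajb11, Dnajb14, Dnajb12 and Dnajb9, lay between -0.04 and 0.06. The difference between the classes was not tested.

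**Figure D4:**
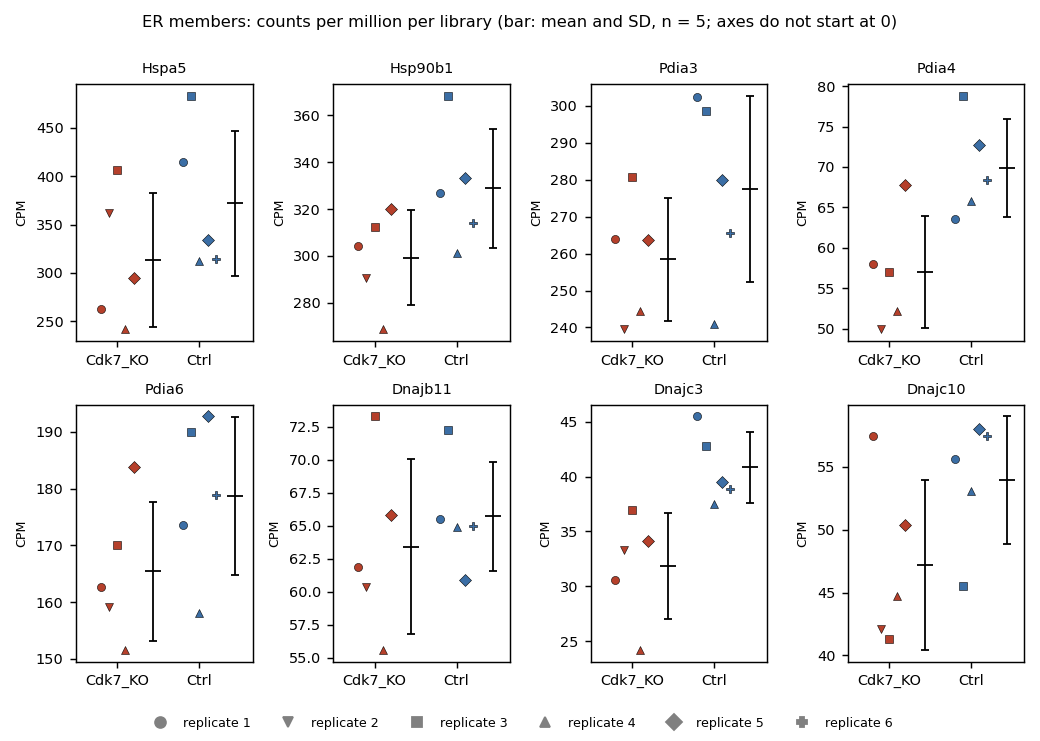
CPM of 8 ER members in each library, Cdk7_KO at left and Ctrl at right, with the mean and SD of 5 libraries; the vertical axes do not start at 0. By library totals Dnajc3 shows no overlap between the groups (highest Cdk7_KO library 37.0 CPM, lowest Ctrl library 37.5 CPM), while Hspa5 and Dnajb11 overlap.

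Of 16 further sensors and targets of the unfolded protein response, counted apart from the ER members above and from the folding genes below, 8 were on the higher side, none had an unadjusted p under 0.05, and the median was 0.00. The smallest p belonged to Mbtps2, a protease that activates Atf6, at 90.5 ± 7.04 CPM in Cdk7_KO and 85.1 ± 7.24 CPM in Ctrl (log2 fold change 0.14, unadjusted p = 0.12, edgeR). Ern1, which encodes the sensor IRE1, had the next smallest p, 0.47 unadjusted (edgeR), at 15.6 ± 3.44 CPM in Cdk7_KO and 14.7 ± 3.36 CPM in Ctrl. Of 16 further ER folding genes and lectin chaperones, 2 were on the higher side, against 52.5% of all genes, with a median of -0.08, against 0.01. An unadjusted edgeR p under 0.05 was reached by 1 of the 16, on the lower side, against 10.5% of all genes lower. This was Serpinh1, the collagen chaperone Hsp47, which had 30.7, 37.1, 42.5, 14.7 and 29.4 CPM in Cdk7_KO, against 137.8, 82.5, 47.3, 51.1 and 44.9 CPM in Ctrl. No Cdk7_KO library reached the lowest Ctrl library (log2 fold change -1.20, SE 0.33, unadjusted p = 0.0036, edgeR). Uggt1, which tests glycoprotein folding, followed at 97.8 ± 5.54 CPM in Cdk7_KO and 108.6 ± 5.52 CPM in Ctrl.

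The largest differences belonged to weakly expressed members, all lower in Cdk7_KO. Hspb8 (ENSMUSG00000041548, chr5:116408491-116422864, GRCm38), a small heat shock protein that works with Bag3 in selective autophagy, had 1.11, 1.33, 1.26, 0.547 and 0.905 CPM in Cdk7_KO, against 4.98, 3.46, 4.00, 2.05 and 1.44 CPM in Ctrl. The groups did not overlap, on counts of 13 to 117 reads per library. The log2 fold change was -1.57 (SE 0.37), with an edgeR adjusted p of 0.161 and a DESeq2 adjusted p of 0.00625. Its partner Bag3 had 2.42, 2.62, 1.70, 1.22 and 2.55 CPM in Cdk7_KO, against 7.49, 5.35, 4.12, 1.77 and 2.63 CPM in Ctrl. Here the Ctrl library of replicate 5 lay inside the Cdk7_KO range (log2 fold change -0.97, unadjusted p = 0.024, edgeR).

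Pdia5 (ENSMUSG00000022844, chr16:35397312-35490873, GRCm38), a protein disulfide isomerase tied to Atf6 activation in human cells, had 2.56, 3.09, 2.84, 2.44 and 2.02 CPM in Cdk7_KO, against 7.75, 6.02, 4.60, 3.82 and 3.96 CPM in Ctrl. No values overlapped, and the fold was 0.51 (log2 -0.96, SE 0.24, edgeR adjusted p 0.161, DESeq2 adjusted p 0.0124). Hspa2, an Hsp70 known from spermatocytes, had 3.29, 4.42, 5.39, 2.78 and 3.87 CPM in Cdk7_KO, against 12.6, 6.44, 4.88, 5.66 and 6.62 CPM in Ctrl. Replicate 4 of Ctrl lay below replicate 3 of Cdk7_KO (log2 fold change -0.83, SE 0.28, unadjusted p = 0.011, edgeR). Hspa12b, an atypical Hsp70 of endothelial cells, had 3.22, 4.18, 5.71, 1.35 and 4.11 CPM in Cdk7_KO, against 26.1, 10.2, 4.20, 6.79 and 4.77 CPM in Ctrl. Its 2 highest values were Ctrl replicates 1 and 3, and the other Ctrl libraries were close to the Cdk7_KO libraries (log2 fold change -1.45, SE 0.51, unadjusted p = 0.014, edgeR).

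Vessel markers were also lower on average. All 9 had a lower mean in Cdk7_KO, and their sum was 107.2, 146.2, 256.5, 48.7 and 142.2 CPM in Cdk7_KO, against 1157, 479.6, 181.9, 224.7 and 211.9 CPM in Ctrl. The Ctrl library of replicate 1 was highest for the vessel markers and for Hspb8, Pdia5, Hspa2, Hspa12b, Hspb1, Bag3 and Serpinh1 alike. The Cdk7_KO library of replicate 3 had a higher vessel sum than the Ctrl libraries of replicates 4, 5 and 6. Its Hspb8 and Pdia5 lay below every Ctrl library, as did its oligodendrocyte lineage sum of 265.9 CPM. Its astrocyte and microglia sums, 910.3 and 124.8 CPM, lay within the Ctrl ranges. The part of vessel and other cells in these members was not tested. Without Ctrl replicate 1 the edgeR log2 fold change was -1.35 for Hspb8 (unadjusted p = 0.0034), -0.78 for Pdia5 (unadjusted p = 0.0054), -0.53 for Hspa2 (unadjusted p = 0.033) and -0.77 for Hspa12b (unadjusted p = 0.060). In that fit 5 members were lower at an unadjusted p under 0.05, in place of 8, and no share over all genes is given for it. With the other-cell index as a covariate in edgeR, Hspb8 was at -1.11 (unadjusted p = 0.089), Pdia5 at -0.90 (unadjusted p = 0.045), Hspa2 at -0.61 (unadjusted p = 0.21) and Hspa12b at -0.58 (unadjusted p = 0.50). Pdia5 alone among the members was then lower at an unadjusted p under 0.05, in a fit whose index did not overlap between the groups. The share over all genes is not given for that fit either.

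The remaining small heat shock genes were sparse. Hspb1, which encodes Hsp27, had 0.450, 1.09, 1.99, 0 and 0.617 CPM in Cdk7_KO, against 7.96, 2.88, 0.282, 0.742 and 0.259 CPM in Ctrl. Outside Ctrl replicates 1 and 3 the values were alike, and the log2 fold change of -1.51 became -0.32 without Ctrl replicate 1. Hspb6 averaged 4.15 ± 1.00 CPM in Cdk7_KO and 4.47 ± 1.30 CPM in Ctrl. Cryab, the alpha-B crystallin gene of the same family, averaged 4.89 ± 2.27 CPM in Cdk7_KO and 7.39 ± 2.30 CPM in Ctrl (log2 fold change -0.55, unadjusted p = 0.13, edgeR).

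**Figure D5:**
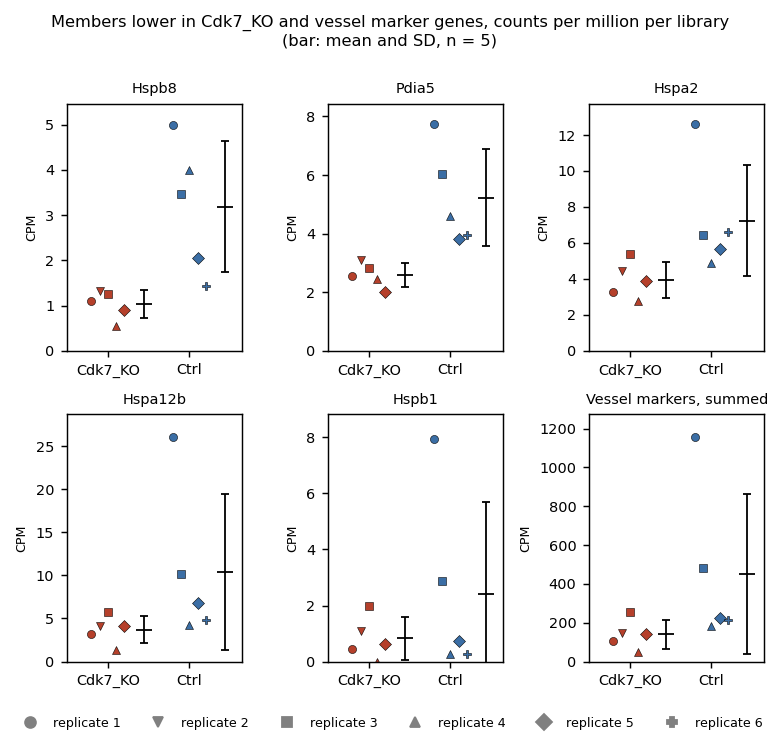
CPM in each library for 5 weakly expressed members and for 9 summed vessel marker genes, Cdk7_KO at left and Ctrl at right, with the mean and SD of 5 libraries. Hspb8 and Pdia5 do not overlap between the groups, and the Ctrl library of replicate 1 is highest in all 6 panels, at 1157 CPM for the vessel markers.

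Replicates numbered 1 to 3 and 4 to 6 formed separate sets. Ddx3y, a Y-linked gene, stood at 45.3 to 54.4 CPM in the first set and at 0 to 0.283 CPM in the second, and Xist at 0 to 0.405 CPM in the first and 253 to 781 CPM in the second, so that the sets differed in sex, and the labels name no batch. With the set as a factor in edgeR, 4 of the 77 members were called at an adjusted p of 0.05, all lower (5.19%), against 4.40% of all genes lower and 0.295% higher. They were Hspb8 (log2 fold change -1.72, adjusted p = 0.0145), Pdia5 (-1.03, adjusted p = 0.0166), Hspa12b (-1.48, adjusted p = 0.0409) and Hspa2 (-0.91, adjusted p = 0.0497). Within replicates 1 to 3, 0 members were higher and 8 lower at an unadjusted p under 0.05 in edgeR, against 2.27% of all genes higher and 8.19% lower in that fit. Within replicates 4 to 6, 14 members were higher and 5 lower, against 6.92% of all genes higher and 12.3% lower. The difference of the genotype effect between the sets was tested directly as an interaction: no gene passed at an adjusted p of 0.05, the smallest adjusted p of a member was 0.665, and 2 members, Dnaja1 and Cct7, had an unadjusted p under 0.05 (edgeR), against 7.34% of all genes.

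The members that did not pass the filter on low counts included Cct6b, Cct8l1, Dnajb7, Dnajb8, Dnajb13, Dnajc5b, Dnajc5g, Dnajc22, Hspa1l, Hspb2, Hspb7, Hspb9 and Pdia2. Of these, Dnajb7, Dnajb8, Dnajc5g and Hspb9 had no count in any library. Several of them, such as Cct6b and Hspa1l, are known mainly from testis.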

How the data were processed

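RNA of sorted EYFP-positive cortical cells was polyA-selected and made into directional libraries, per the labels' protocols. The authors deposited whole-number counts per gene, not normalized, and every column was matched to a sample by name (0 left over). STAR, Salmon and the build GRCm38 are named per the submitters' processing notes. Neither the counter nor its strand setting or annotation is given in the sources used here, so overlapping and antisense genes, and near-identical copies such as Hspa1a and Hspa1b, may share reads. No pair of the 10 libraries was a copy (smallest chi-square per gene 11.2).

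Counts were tested with edgeR 4.0.16 in R 4.3.3 (filterByExpr by group with a minimum count of 10, TMM, glmQLFit and glmQLFTest, genotype alone, Benjamini-Hochberg over 15578 genes, threshold 0.05). Fold changes are Cdk7_KO over Ctrl. CPM use library totals, and lengths are GENCODE M21 exon unions. DESeq2 1.42.0 and limma 3.58.1 (voom) were among the alternatives, and the code was checked on simulated counts. P-values rest on the spread between libraries, each from 1 sorted preparation of 1 mouse, so mouse, sort and library variation are not separated. In the genotype-only fit this spread also holds the difference between the replicate sets. Counting error is largest for low members such as Hspb8.

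Members, their 23 groups and all lists were chosen with earlier results of these data known. Named were Cdk7, Hspa5, Hspa8, Hsp90ab1, the 2 most abundant and the 2 of smallest p in each group, all members with an unadjusted p under 0.05 or a DESeq2 call, those without overlap at a mean of at least 5 CPM, and the 2 partners of smallest p per role. A further 7 members were named after their values were seen: Cct5, Cct3, Tcp1, Hspa1a, Hspa1b, Dnajb1 and Dnajb9.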

Additional observations from a re-analysis of the deposited data

Results flagged for a closer look

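Among 160 sets of 5 values (each named member and each group sum, per genotype), 7 held a highest or lowest library far from the other 4. Chance sets apart about 1 in 20 such sets. Dnajb5 was at 128.6 CPM in Ctrl replicate 4, where the next library had 106.9 CPM. Dnajc11 was at 98.3 CPM in Ctrl replicate 6, against 88.4 CPM in the next. In Ctrl replicate 1, the library highest in vessel markers, Hspa12b was at 26.1 CPM against 10.2 CPM in the next, and Hspa2 at 12.6 CPM against 6.62 CPM. Cct3 was lowest at 319.2 CPM in Cdk7_KO replicate 3, where the next library had 340.5 CPM, and at 312.6 CPM in Ctrl replicate 4, where the next had 329.2 CPM. The sum of the DnaJ class C genes without an assigned compartment was 440.1 CPM in Cdk7_KO replicate 5, below 449.5 CPM in the next.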

How the results depend on the processing

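Counts at adjusted p under 0.05 over all genes (0 in edgeR) were 561 in DESeq2, 1 with no filter, 732 with the replicate set (1 to 3 or 4 to 6) as a factor and 0 to 5 with 1 library left out. Members called were 2 in DESeq2 and 4 with the set as a factor. Members higher at unadjusted p under 0.05 (9) numbered 2 with library totals (both among the 9), 5 with a mean of at least 1 CPM, 0 in replicates 1 to 3 alone, 14 in replicates 4 to 6 alone (7 shared), 0 with the other-cell index, and 0 to 10 with 1 library left out: 0 without Cdk7_KO replicate 4, 5 without Ctrl replicate 4 and 4 without Ctrl replicate 5. Members lower (8) numbered 5 in replicates 4 to 6 alone, 1 with the index and 5 to 9 with 1 library left out (5 without Ctrl replicate 1). Shares over all genes are not given for the fits with library totals, a mean of at least 1 CPM, the index or 1 library left out. Library totals shifted the median of all genes by -0.053. Between library totals and TMM, the log2 difference of summed CPM moved from 0.01 to 0.07 for Hsp60 and Hsp10, 0.08 to 0.13 for TRiC, 0.02 to 0.08 for cytosolic DnaJ class B, 0.02 to 0.07 for other DnaJ class C and 0.04 to 0.09 for mitochondrial Hsp70. The causes were not tested. Replicate numbers did not pair the libraries (correlations of same-numbered libraries -0.10, 0.31, 0.14 and 0.17 for numbers 1, 3, 4 and 5); with the replicate block over these 8 libraries, 5 genes and 0 members were called, 4 members were higher (2 shared), and Dnaja3, Dnajb11 and Hspbap1 stood at 0.11, 0.02 and 0.14. Among the members chosen for naming, some near 0 changed sign elsewhere. Hspbap1 was at 0.00 in DESeq2, with RLE size factors and with no filter. With library totals Dnajb1, Dnajb5, Hsf2 and Hspd1 were at -0.01, -0.04, -0.03 and -0.01, and with a mean of at least 1 CPM Dnajb5 was at -0.01. With the index Dnaja3, Dnajb11, Dnajb14, Dnajb5, Dnajc1, Hsf2 and Hsp90b1 were at 0.09, 0.13, 0.01, -0.05, 0.05, -0.03 and 0.05, and Hspa13, Hspa1b, Hspa5, Hspa8, Hspb1, Pdia3 and Pdia6 at -0.01, 0.12, 0.11, -0.06, 0.41, 0.05 and 0.02. With the set as a factor Dnaja3, Hspb6 and Hspbap1 were at 0.05, 0.00 and 0.09. In replicates 1 to 3 alone Dnaja3, Dnajb1, Dnajb9, Dnajc8 and Hsp90ab1 were at 0.21, -0.10, 0.00, -0.02 and -0.03, and Hspbap1, Hspbp1, Hspd1, Hsph1 and Tcp1 at 0.21, -0.12, -0.01, -0.01 and -0.03. In replicates 4 to 6 alone Dnajb11, Hsf2, Hspa1b, Hspb6, Pdia3 and Pdia6 were at 0.03, -0.07, 0.20, 0.17, 0.05 and 0.02. With 1 library left out, 21 of the 77 tested members changed sign, 12 of them chosen for naming, whose ranges were -0.05 to 0.03 (Dnajb11), -0.10 to 0.07 (Dnaja3), -0.02 to 0.05 (Hsf2), -0.09 to 0.15 (Hspbap1), -0.17 to 0.09 (Hspb6), -0.06 to 0.04 (Dnajb9), -0.01 to 0.07 (Dnajb5), -0.96 to 0.14 (Hspa1a), -0.92 to 0.22 (Hspa1b), -0.00 to 0.13 (Hspa8), -0.09 to 0.00 (Dnajb14) and -0.00 to 0.09 (Dnajb1). Robust estimation changed no member's direction and no call. Limma voom changed no call and the direction of 1 member, Hspb3 (0.18, in place of -0.54).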
